A study of Sus scrofa with 8 samples.

Results

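The genes described here are the filamins FLNA and FLNC and the refilins RFLNA and RFLNB, 4 genes of the 14718 measured in left ventricular tissue of gene-edited and wild type (WT) pigs. All 4 were in the table, and all 4 passed the filter on low values that kept 11660 genes. The members were chosen by gene name, with their mutant and WT expression values in these same libraries in view. The differences between mutant and WT pigs are therefore given for the members as a description, without a test of their own.

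Filamins are long actin-binding proteins that pair into V-shaped dimers and tie actin filaments into networks, which they also link to integrins and other membrane proteins. FLNC is the muscle filamin. It sits at the Z-discs and intercalated discs of cardiomyocytes, and inherited variants of it cause cardiomyopathies. FLNA is the broadly expressed filamin of non-muscle cells and smooth muscle. Refilins, encoded by RFLNA and RFLNB, are small proteins that bind filamin A and favour the bundling of actin filaments over their arrangement in a mesh. Both refilins are known chiefly from skeletal development and from the actin bundles above the nucleus of cultured cells.

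RNA was sequenced from 4 WT pigs and 4 mutant pigs, with 1 library per pig. Of the mutant pigs, replicates 1 to 3 have the genotype label KCNH2 mutation and replicate 4 has the label KCNH3 mutation, although the series design speaks of KCNH2 alone. The labels give no age, sex, litter, zygosity, clone, treatment or batch, and p-values measure only the spread between these samples. KCNH2, a potassium channel gene, had normalized counts of 989, 559, 1909 and 148 across WT pigs and 798, 1762, 1751 and 1839 across mutant pigs, and gene counts do not show an edit. Values of 4 pigs are listed in the order of replicates 1 to 4 throughout. A normalized count is a gene's number of reads divided by the authors' size factor of its library.

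Libraries held 15.98 to 22.5 M reads (M stands for mega). The 13 mitochondrially encoded genes took 31.7% to 87.9% of the reads in WT and 15.9% to 27.5% in mutant libraries. WT replicate 3 stood apart with 2.53 M reads of nuclear genes, against 7.53 to 16.2 M in the others, and there 1 read was worth 4.84 normalized counts. WT replicate 4 came next, with 7.53 M reads of nuclear genes and a mitochondrial share of 65.2%. That share was 33.5% and 31.7% in WT replicates 1 and 2. Values without WT replicates 3 and 4 are given below for this reason. All 9 cardiomyocyte markers had reads in every library, but the cardiac actin gene ACTC1 had 1752 normalized counts in WT replicate 4 against at least 32209 elsewhere. In limma with Benjamini-Hochberg adjustment no gene of 11660 passed (1616 at an unadjusted p under 0.05). On recovered reads edgeR called 0 of 11878 genes and DESeq2 called 582 of 12763. The median log2 difference over all genes tested was 0.12.

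RFLNB was the member with the widest separation. Its normalized counts read 93.8, 20.7, 63.0 and 106 across WT pigs and 518, 342, 489 and 458 across mutant pigs. Every mutant library was above every WT library, and the lowest mutant value was 3.24 times the highest WT value. Mean counts were 70.8 ± 37.9 for WT and 452 ± 77.0 for mutant pigs (SD, n = 4 each). The log2 difference, mutant minus WT, was 2.87 ± 0.49 (SE) on the scale of log2(normalized count + 1). Of the genes tested, 0.583% had a higher difference. The mitochondrial share of reads, given above, also separated the groups, and with libraries scaled to their reads of nuclear genes the difference was 2.95.

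These RFLNB values rest on few reads in WT. WT pigs had 118, 24, 13 and 87 reads, and mutant pigs had 848, 451, 684 and 692. With exact 95% Poisson intervals, which cover counting error only, the highest upper bound in WT was 130.2 normalized counts, in replicate 4. The lowest lower bound among mutant libraries was 312, in replicate 2. The intervals of the groups thus did not overlap, which describes values already in view and is no test. Among WT libraries the level differed 5.09-fold between replicates 2 and 4, while among mutant libraries the highest was 1.51 times the lowest.

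RFLNA, the other refilin, did not share this pattern. Its normalized counts read 34.2, 43.2, 24.2 and 120.1 across WT pigs and 37.3, 34.9, 20.7 and 29.8 across mutant pigs. The groups overlapped, and WT replicate 4 was the single high library. Mean counts were 55.4 ± 43.8 for WT and 30.7 ± 7.33 for mutant pigs (SD, n = 4 each), a log2 difference of -0.59 ± 0.65 (SE). Without WT replicate 4 the difference was -0.13. RFLNA was scarce throughout, with 5 reads in WT replicate 3 and 29 to 99 in the other libraries, so that its value in WT replicate 3 had an exact 95% Poisson interval of 7.87 to 56.5 normalized counts.

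FLNC was higher in all mutant than in all WT libraries. Its normalized counts read 11034, 10637, 12358 and 3518 across WT pigs and 14559, 22934, 20167 and 17055 across mutant pigs. The lowest mutant value was 1.18 times the highest WT value, and WT replicate 4 lay far below the other WT libraries. Mean counts were 9387 ± 3981 for WT and 18679 ± 3648 for mutant pigs (SD, n = 4 each), with a log2 difference of 1.12 ± 0.41 (SE). Without WT replicate 4, the library with little ACTC1, the difference was 0.70, and without WT replicates 3 and 4 together it was 0.76. Of the genes tested, 12.1% had a higher difference than FLNC, and with libraries scaled to their nuclear reads the difference was 1.21.

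FLNA showed no separation of the groups. Its normalized counts read 11070, 3363, 10057 and 7956 across WT pigs and 3622, 4133, 8025 and 7839 across mutant pigs. WT replicate 2 and mutant replicates 1 and 2 formed the low end, so low libraries came from both genotypes. Mean counts were 8112 ± 3421 for WT and 5905 ± 2351 for mutant pigs (SD, n = 4 each), and the log2 difference was -0.42 ± 0.44 (SE). Leaving out single libraries moved it between -0.79 (without WT replicate 2) and -0.21 (without mutant replicate 1), and it was -0.14 without WT replicates 3 and 4. With array quality weights, which count poorly fitting libraries less, it was 0.22, the opposite sign.

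**Figure D1:**
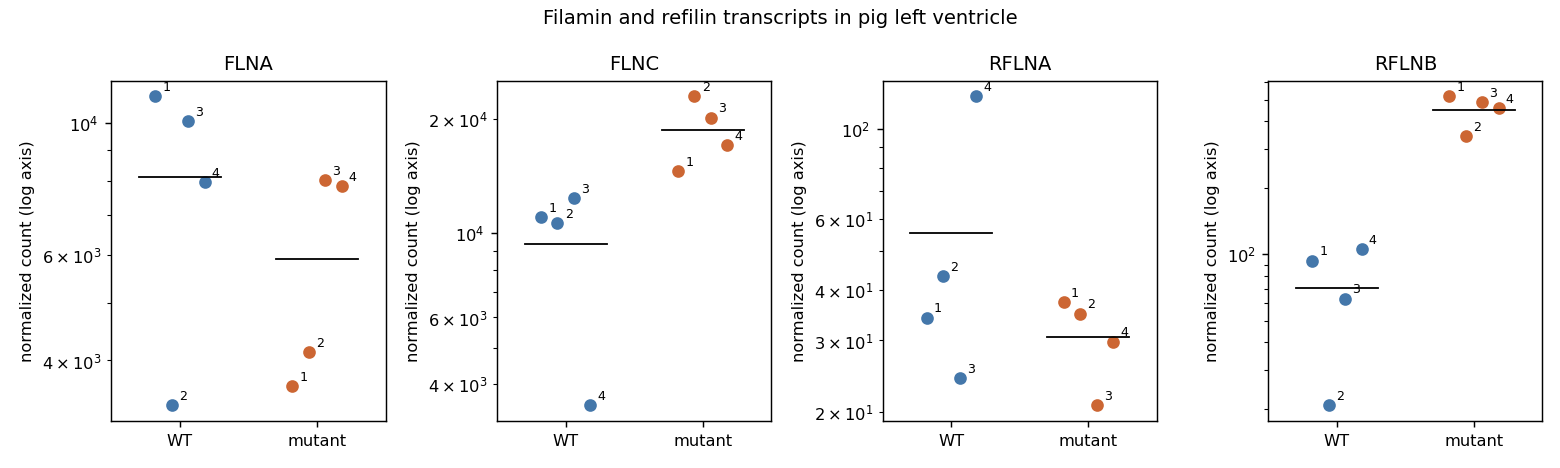
Normalized counts (log axis) of the 4 members in each library, with points numbered by replicate and a line at the mean of each group. The RFLNB points of the mutant libraries lie between 342 and 518, above all WT points at 20.7 to 106, whereas FLNA and RFLNA overlap between the groups and FLNC is separated by a narrow gap.

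Across the 4 members, 2 were higher and 2 lower in mutant pigs, with a median log2 difference of 0.35 against 0.12 over all genes tested. The groups did not overlap for 2 of the 4, FLNC and RFLNB, both with mutant above WT. Among all genes tested 6.17% were separated in that direction and 11.4% in either. Limma and edgeR called 0 of the 4 members, where each called 0% of all genes, and DESeq2 on recovered reads called RFLNB alone (4.56% of all genes). The authors' deposited table likewise calls RFLNB and no other member, with a log2 fold change of 2.67 (4.54% of genes called in that table, 1.32% higher and 3.23% lower). The members were chosen with this contrast known, and nothing is read from these counts.

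Ratios of members within a library do not depend on its size factor. Counts are not scaled to gene length, so such a ratio is compared only between libraries. RFLNB reads per RFLNA read numbered 2.74, 0.48, 2.60 and 0.879 across WT pigs and 13.9, 9.80, 23.6 and 15.4 across mutant pigs. The balance of the refilins was therefore shifted towards RFLNB in every mutant library, and the lowest mutant ratio was 3.57 times the highest WT ratio. This ratio and those below are built from the member values already described, and are no independent evidence of a difference. The ratio of WT replicate 3 rests on only 13 RFLNB reads and 5 RFLNA reads. Without WT replicates 3 and 4 the log2 difference of this ratio was 3.70, against 3.50 with all libraries.

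Refilin B relative to filamin A, its binding partner, was also separated. RFLNB reads per 1000 FLNA reads numbered 8.47, 6.16, 6.26 and 13.3 across WT pigs and 143, 82.9, 60.9 and 58.5 across mutant pigs. The lowest mutant value was 4.41 times the highest WT value. The corresponding values per 1000 FLNC reads were 8.50, 1.95, 5.10 and 30.0 across WT pigs and 35.6, 14.9, 24.3 and 26.9 across mutant pigs. Here WT replicate 4, the library with little FLNC, lay above 3 of the 4 mutant libraries, and the groups overlapped.

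The balance of the 2 filamins was less uniform than that of the refilins. FLNC reads per FLNA read numbered 0.997, 3.16, 1.23 and 0.442 across WT pigs and 4.02, 5.55, 2.51 and 2.18 across mutant pigs. WT replicate 2, with little FLNA, lay above mutant replicates 3 and 4, so that the ratio overlapped between the groups even though FLNC itself did not. The mean ratio was 1.46 ± 1.18 for WT and 3.56 ± 1.55 for mutant pigs (SD, n = 4 each). The log2 difference was 1.54 with all libraries and 0.90 without WT replicates 3 and 4.

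**Figure D2:**
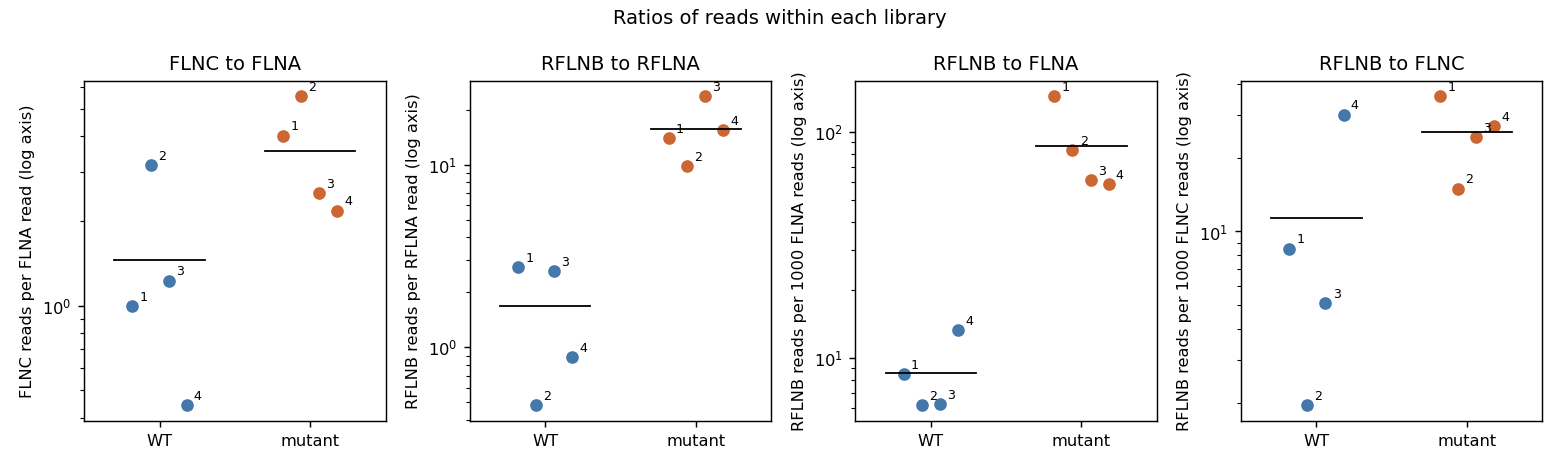
Ratios of reads within each library (log axes), with points numbered by replicate and a line at the mean of each group. RFLNB to RFLNA and RFLNB to FLNA separate the groups, with mutant points at 9.80 or more and 58.5 or more, while FLNC to FLNA and RFLNB to FLNC overlap through WT replicate 2 and WT replicate 4.

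In bulk tissue, more cells of a type and more RNA per cell cannot be told apart, and markers of the cell types moved with some of these values. The summed normalized count of the 9 cardiomyocyte markers was 547594 to 738995 in WT and 790805 to 841949 in mutant libraries, without overlap, as for FLNC. Of these 9 genes 6 were higher and 3 lower in mutant libraries, and the groups were separated for MYH7, the β-myosin heavy chain gene (log2 difference 1.01 ± 0.33 (SE), or 2.15 after quantile normalization), alone. MYH7 had 146085, 136532, 95433 and 133720 normalized counts across WT pigs and 305804, 253329, 233493 and 234015 across mutant pigs. Its difference is thus part of that of the sum, and whether the sum separates the groups without MYH7 was not tested. Relative to the sum of all 9 markers, FLNC had 15.3, 17.1, 16.7 and 6.43 counts per 1000 marker counts across WT pigs and 18.4, 28.2, 24.0 and 21.5 across mutant pigs. The groups stayed apart on this scale, by a narrow margin, with a log2 difference of 0.81, or 0.47 without WT replicate 4.

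RFLNB was set against the marker sums in the same way. Endothelial markers (7 of 7 higher, none separated, none at 0) summed to 8018 to 38491 in WT and 15800 to 25207 in mutant libraries, so that WT enclosed the mutant range. Smooth muscle and pericyte markers (5 of 9 higher, none separated, none at 0) summed to 9079 to 37080 in WT and 14575 to 24672 in mutant libraries. RFLNB per 1000 endothelial marker counts was 2.55 to 7.85 in WT and 20.6 to 28.0 in mutant libraries, and per 1000 smooth muscle and pericyte marker counts it was 1.70 to 3.98 and 21.0 to 29.4. RFLNB per marker count was separated for cardiomyocyte, endothelial and smooth muscle markers, with log2 differences of 2.58, 2.59 and 3.29. What cell composition adds to the RFLNB difference was not tested. RFLNB overlapped between the groups relative to fibroblast markers (5 of 6 higher, none separated, none at 0). Their sum ranged from 6560 to 115096 in WT and from 26328 to 72010 in mutant libraries, and RFLNB per 1000 of it ranged from 0.547 to 16.1 in WT and from 6.57 to 19.7 in mutant libraries.

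FLNA, which smooth muscle and endothelial cells express strongly, stayed mixed relative to their markers. Per 1000 smooth muscle and pericyte marker counts it was 219 to 470.4 in WT and 147 to 482 in mutant libraries, a log2 difference of -0.02, or -0.41 without WT replicates 3 and 4. Per 1000 endothelial marker counts it was 207 to 1254 in WT and 144 to 467 in mutant libraries, a log2 difference of -0.72. Dropping WT replicate 3 moved this to -0.27, whereas dropping WT replicate 4 moved it to -1.14. Against fibroblast markers FLNA was 87.4 to 1213 per 1000 counts in WT and 110 to 138 in mutant libraries, with overlap. The log2 difference on the fibroblast scale was -1.41. It became -2.03 once WT replicate 3 was removed, but -0.76 once WT replicate 4 was removed instead. The leucocyte markers (5 of 6 higher, none separated) summed to only 223 to 2146 normalized counts in WT and 597 to 1279 in mutant libraries. PTPRC, CD68, S100A8 and ITGAM each had no read in at least 1 library.

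The genes that filamins work with were taken as 5 lists of 82 genes in all, of which 78 were in the table and all 78 passed the filter. LDB3, MRTFA, TAGLN2 and FHL2 were not analysed here. Limma and edgeR called 0 of the 78 at an adjusted p under 0.05 (12 and 13 at an unadjusted p under 0.05). In limma these 12 were 15.4% of the list genes, against 13.9% of all genes. In edgeR 1753 of all 11878 genes tested were at that unadjusted level. DESeq2 called 3 of the 76 that it tested, where it called 4.56% of all genes. The authors' deposited table, in which 4.54% of all genes are called, calls the same 3. They are SVIL higher and VPS16 and CCN1 lower. The mutant libraries lay above the WT libraries for 6 of the 78 genes (7.69%, against 6.17% of all genes) and below them for 1 (1.28%, against 5.22%). Their median log2 difference of 0.13 was close to the 0.12 of all genes tested.

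**Figure D3:**
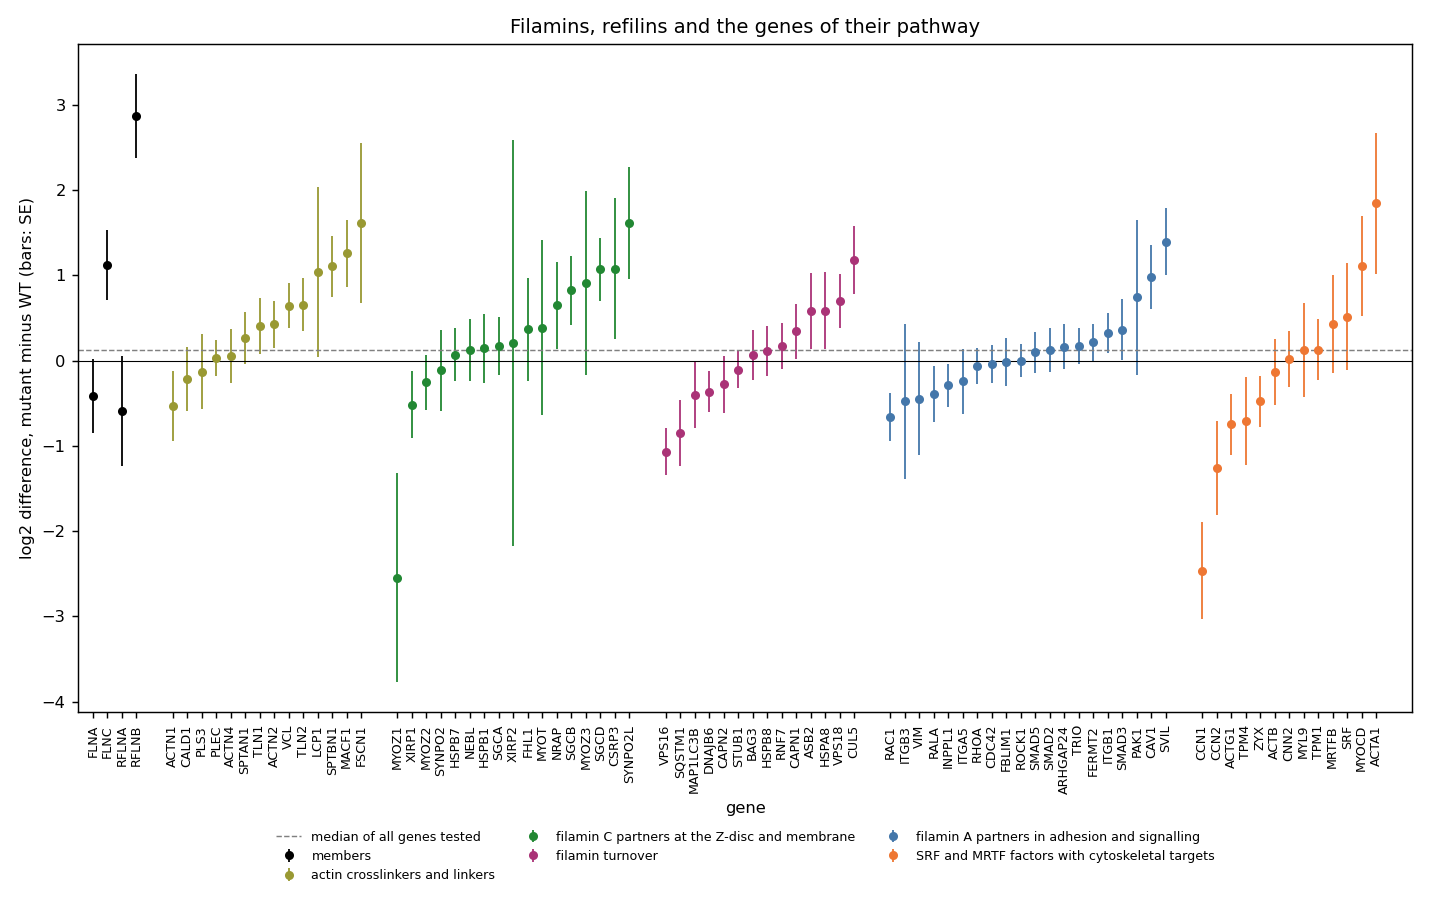
Log2 differences, mutant minus WT, with SE bars for the 4 members and for the genes of the 5 lists, sorted within each list, and a dashed line at the median of all genes tested (0.12). RFLNB at 2.87 lies above each of the 78 list genes shown, the highest of which is ACTA1 at 1.85, and CCN1 and MYOZ1 have the lowest values.

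Actin crosslinkers and linkers of actin to membranes, the filamins' functional relatives, had 11 genes higher and 3 lower of 14 in mutant pigs, or 78.6% higher against 56.9% of all genes tested (none called by limma, median log2 difference 0.42). Without WT replicate 3 the median was 0.10. MACF1, a giant linker of microtubules and actin, had 1356, 3271, 814 and 1938 normalized counts across WT pigs and 4583, 4150, 3284 and 3672 across mutant pigs. Its groups did not overlap, with a difference of 1.26 ± 0.39 (SE; limma adjusted p = 0.254), or 0.81 with array quality weights. SPTBN1, the β-spectrin of the membrane skeleton, had 12903, 11256, 4520 and 10128 across WT pigs and 25042, 16140, 18382 and 19346 across mutant pigs, also without overlap (1.11 ± 0.36 SE; limma adjusted p = 0.261). Without WT replicates 3 and 4 the SPTBN1 difference was 0.69. The differences of VCL, which encodes vinculin, and TLN2, a talin gene, were 0.65 ± 0.27 (SE) and 0.66 ± 0.31 (SE), with overlapping groups. The TLN2 value was 0.38 without WT replicate 3, and the VCL value was 0.37 without WT replicates 3 and 4.

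Partners of filamin C at the Z-disc and the membrane had 13 genes higher and 4 lower of 17, or 76.5% higher (none called by limma, median 0.21). The median was 0.04 without mutant replicate 1 and 0.69 without mutant replicate 4. With all libraries it was the value of XIRP2 (0.21 ± 2.38 SE), a gene with 3500 normalized counts in mutant replicate 1. XIRP2 and MYOZ3, both counted as higher, had no read in WT replicate 3, and both were named after their values were seen. SGCD, the δ-sarcoglycan gene of the dystrophin complex, to which filamin C binds, had 259, 246, 266 and 281 normalized counts across WT pigs and 1227, 334, 489.8 and 470.1 across mutant pigs. It was the only gene of this list whose groups did not overlap (1.07 ± 0.37 SE; limma adjusted p = 0.280), and mutant replicate 1 was far above the others. Without that library the difference was 0.69. Its complex partner SGCB overlapped between the groups, at 0.83 ± 0.40 (SE), or 0.45 without WT replicate 4. SYNPO2L, an actin-binding Z-disc gene, had a difference of 1.61 ± 0.65 (SE), or 0.79 without WT replicates 3 and 4. MYOZ1, which encodes a Z-disc protein that binds filamins and α-actinin, had the lowest difference of the list, -2.55 ± 1.22 (SE), and a single high library, WT replicate 2, with 381 normalized counts. Its difference was -1.69 without WT replicate 2 and -1.63 without mutant replicate 1. Few reads limit MYOZ1, since mutant replicate 1 had 0.611 normalized counts, the worth of 1 read there. With 5 in place of 1 added to each count, the MYOZ1 difference was -2.02.

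Genes of filamin turnover were divided (8 higher and 6 lower of 14, none called by limma, median 0.09, or -0.12 without WT replicate 4). In muscle, damaged filamin is removed by the BAG3 chaperone complex through autophagy, and the ubiquitin ligase subunit ASB2 marks filamins for the proteasome. BAG3 and ASB2 themselves had differences of 0.07 and 0.58 with overlapping groups, and both were named here after their values were seen. VPS16, a subunit of the complexes that fuse vesicles with lysosomes, had 621, 538, 969 and 989 normalized counts across WT pigs and 274, 414, 378 and 383 across mutant pigs. All mutant libraries were below all WT libraries (-1.07 ± 0.27 SE; limma adjusted p = 0.218, and the authors' deposited table gives an adjusted p of 0.0167). Without WT replicates 3 and 4 its difference was -0.69. Another subunit of these complexes, VPS18, was separated in the opposite direction (0.70 ± 0.32 SE), and so was CUL5, the cullin on which ASB2 assembles (1.18 ± 0.40 SE). Without WT replicates 3 and 4 these were 0.27 and 0.56, and without WT replicate 3 alone VPS18 was at 0.46. SQSTM1, an autophagy receptor gene, overlapped between the groups at -0.85 ± 0.39 (SE). Its difference was -0.52 without WT replicate 4, or -0.25 when WT replicate 3 was left out as well.

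Partners of filamin A in adhesion and signalling centred near 0 (11 higher and 9 lower of 20, none called by limma, median 0.05, or -0.05 without WT replicate 3). SVIL, which encodes the actin- and membrane-binding protein supervillin, had 1681, 1842, 1289 and 540 normalized counts across WT pigs and 4563, 2439, 3078 and 3027 across mutant pigs. The groups did not overlap (1.40 ± 0.40 SE; limma adjusted p = 0.228, and the authors' deposited table gives an adjusted p of 0.0444). The difference was 0.86 without WT replicates 3 and 4. CAV1, the caveolin gene of endothelium and other cells, and the small GTPase gene RAC1 had differences of 0.98 ± 0.38 (SE) and -0.66 ± 0.28 (SE) with overlapping groups. That of ITGB1, the integrin β chain that filamin A binds, was 0.32 ± 0.23 (SE).

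The serum response factor and its cofactors, which drive many actin cytoskeleton genes, and a set of their targets were likewise divided (7 higher and 6 lower of 13, none called by limma, median 0.02). Leaving out WT replicate 4 gave a median of -0.20, and leaving out WT replicate 1 gave 0.22. CCN1, a matricellular protein gene, had 4116, 4624, 5707 and 1011 normalized counts across WT pigs and 1158, 678, 438 and 343 across mutant pigs. WT replicate 4 lay below mutant replicate 1, so the groups overlapped (-2.46 ± 0.57 SE; limma adjusted p = 0.197, and the authors' deposited table gives an adjusted p of 0.000671). CCN2, the related connective tissue growth factor gene, had a difference of -1.26 ± 0.55 (SE), or -0.76 without WT replicate 3. The skeletal α-actin gene ACTA1 and the cytoplasmic γ-actin gene ACTG1 lay on opposite sides, at 1.85 ± 0.83 (SE) and -0.75 ± 0.36 (SE). The ACTA1 difference was 1.13 without WT replicate 2 and 0.99 in DESeq2, and that of ACTG1 was -0.49 with array quality weights.

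The genes closest to each member across the 8 libraries were found by the root-mean-square distance between log2 profiles centred on their means, among 10122 genes with a mean of at least 50 normalized counts. For RFLNB these were ITGA6, the α6 subunit of laminin-binding integrins, TIMP4, an inhibitor of metalloproteinases, and RNF144A, a ubiquitin ligase gene, at distances of 0.51, 0.65 and 0.74 on the log2 scale. ITGA6 had 519, 76.9, 213 and 507 normalized counts across WT pigs and 1556, 594, 1120 and 1149 across mutant pigs, with WT replicate 2 lowest as for RFLNB. For FLNC the nearest were RCCD1, ADGRA3 and HEATR3 at 0.11, 0.14 and 0.20. ADGRA3, an adhesion receptor gene, had 344, 458, 451 and 113 across WT pigs and 494, 778, 679 and 659 across mutant pigs, with the same low WT replicate 4.

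For FLNA the nearest genes were MED8, EXTL1 and HOMER3 at 0.19, 0.22 and 0.23. MED8, a Mediator subunit gene, had 787, 289, 761 and 587 normalized counts across WT pigs and 235, 390.3, 508 and 521 across mutant pigs, which repeats the low values of WT replicate 2 and mutant replicates 1 and 2. For RFLNA they were PAXBP1, TYK2 and SWT1 at 0.12, 0.19 and 0.22. TYK2, a Janus kinase gene, had 2025 normalized counts in WT replicate 4 and 388 to 897 in the other libraries. The distances between members ranged from 1.01 to 1.91. Ranked among the genes compared, FLNC was at place 1072 from RFLNB, and the members were at place 5793 or later in each of the other pairings.

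**Figure D4:**
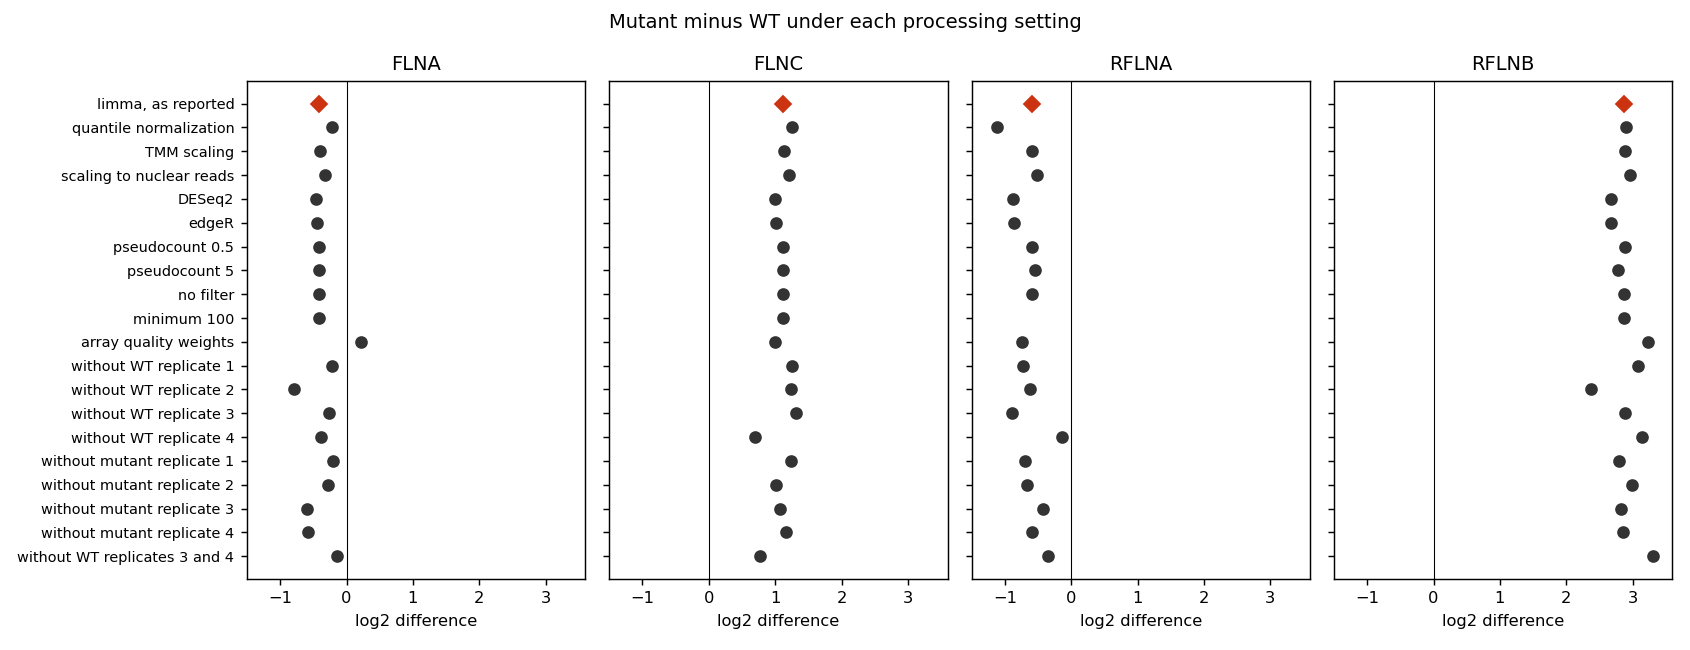
Log2 difference, mutant minus WT, of the 4 members under each processing setting, with a red diamond for the values reported above and dots for the alternatives. RFLNB stays between 2.37 and 3.30 and FLNC between 0.70 and 1.31, RFLNA between -1.11 and -0.13, and FLNA crosses 0 under array quality weights.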

How the data were processed

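RNA of left ventricular tissue was extracted with TRIzol, selected by poly-T beads and made into libraries with an NEBNext Ultra kit, per the labels' protocols; strand-specific counting is not stated. The authors deposited 1 table with 14720 rows, of which 2 named no gene (0.392% to 0.853% of reads) and were left out. Per the file headers it holds the signal per gene and library, which is a normalized count, and the authors' log2 fold change, Wald score and p-value. DESeq2 made these values, per the submitters' processing notes, which list the human build GRCh38 for these pig samples. No coordinates are printed, because the aligner and the annotation were not given in the sources used here.

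All values were whole multiples of 1 read (100% within 1e-06 reads), so counts were recovered from the deposited signal. Genes with at least 10 normalized counts in at least 4 libraries were tested by limma 3.58.1 (R 4.3.3; trended, robust prior) on log2(normalized count + 1), which understates the difference of low genes. DESeq2 1.42.0 with the authors' size factors, edgeR 4.0.16, other scalings, filters and pseudocounts, array quality weights and left-out libraries were alternatives. The tests were tried on simulated data with the same spread for every gene, large changes and no differences in mitochondrial share. That trial does not show how they perform on these libraries. The members, gene lists and tests were chosen with earlier results of these data known. Named genes were the members and KCNH2, the 4 genes with the smallest limma p of each list, the most abundant markers, and the 3 genes nearest to each member. Ratios of members, values per marker count and neighbouring genes were added after the data were seen. Some related genes are not reported here. Of 14718 symbols, 14504 matched the pig gene tables.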

Additional observations from a re-analysis of the deposited data

Results flagged for a closer look

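Of 102 groups of 4 libraries examined, 7 had a library farther from the other 3 than Dixon's 95% critical value allows on the log2 scale. Chance flags about 1 in 20 independent groups. That rate need not hold here, because many genes were picked by p-value or by likeness to a member, and all share the same libraries. Among the members the flagged group was FLNC in WT, where replicate 4 was low at 3518 normalized counts. WT replicate 4 was also low for ACTC1, at 1752. In WT replicate 2, EXTL1 and HOMER3 were low at 32.0 and 55.3, and both were picked for their likeness to FLNA, which was lowest there too. In mutant libraries TLN2 was high in replicate 1 (1577), KCNH2 was low in replicate 1 (798) and RAC1 was low in replicate 4 (2620). None of the refilin values and none of the 4 ratios of members plotted above met this criterion.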

How the results depend on the processing

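No paired analysis was possible because the labels give each pig its own number and name no pairs or litters. Limma called 0 genes as reported, 3 after quantile normalization, 92 with array quality weights, 12 without WT replicates 3 and 4, and 0 to 3 when each library was left out in turn, while DESeq2 called 582. Of the genes in the 5 lists, DESeq2 called 3 and limma with array quality weights called 2 (CCN1 and MYOCD, the second named after its value was seen), against 0 as reported. The differences of RFLNB and FLNC kept their sign under all 19 alternatives and that of RFLNA under all 18 that measured it (the minimum of 100 removed it), while FLNA changed sign under array quality weights alone. RFLNB was called under DESeq2 and array quality weights and under none of the other 17. The 3 genes near FLNA in pattern changed sign. With array quality weights MED8 was at 0.0028, EXTL1 at 0.65 and HOMER3 at 0.49. Without WT replicates 3 and 4, EXTL1 was at 0.28 and HOMER3 at 0.32, and leaving out single libraries gave -0.55 to 0.087 for EXTL1 and -0.57 to 0.053 for HOMER3. The causes were not tested. Depth limits RFLNA and the WT values of RFLNB most, with as few as 5 and 13 reads.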

Other observations

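The genes beside RFLNB on the pig chromosome, by their order in the Sscrofa11.1 annotation, did not share its pattern. This look was added after the data were seen, and carries no test. The nearest measured genes on either side, VPS53 and RPH3AL, had log2 differences of -0.14 ± 0.37 (SE) and -0.11 ± 0.34 (SE) with overlapping groups, and GEMIN4, beyond VPS53, had one of 0.01 ± 0.29 (SE). DOC2B, beyond RPH3AL, was lower in all mutant than in all WT libraries, at 170 ± 116 normalized counts for WT and 29.7 ± 13.9 for mutant pigs (SD, n = 4 each), a difference of -2.27 ± 0.67 (SE). DOC2B encodes a calcium-sensing protein of vesicle release. Beside FLNC, ATP6V1F and CCDC136 had differences of -0.33 ± 0.29 (SE) and -0.84 ± 0.79 (SE), and beside FLNA, EMD and RPL10 had -0.27 ± 0.26 (SE) and -0.53 ± 0.31 (SE), all with overlapping groups.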
